A study of Homo sapiens with 10 samples.

Results

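The comparison described here set PC3 cells treated with PRT4165 against PC3 cells in which RNF2 messenger RNA was reduced by the hairpin RNF2 shRNA1. Its members are 4 of the 10 RNA-seq libraries of the study, 2 of each kind, taken by their labels, with all genes of the count tables. PC3 is an established human prostate cancer cell line. Per the labels, the RNF2 shRNA1 cells and the control cells with a Scramble shRNA expressed their hairpins stably, and the PRT4165 cells were exposed to the compound for 48 hours. All groups grew in DMEM/F-12 with serum, glutamine and antibiotics. The labels give no dose, no vehicle group and no clone, and do not say whether the PRT4165 cells carried a hairpin vector. An effect of the compound or the hairpin therefore cannot be told apart from an effect of vehicle, vector or separate culture. The 2 Scramble libraries are given beside the main values as a common point of reference. The other 2 groups of the study, RNF2 shRNA2 and GW-516, entered the fit for the estimate of spread and are given only where a result turns on them.

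RNF2, also called RING1B, is the catalytic RING subunit of PRC1, a Polycomb repressive complex that adds ubiquitin to histone H2A and holds developmental genes in a repressed state. RING1 is its close relative, and BMI1 and the other PCGF proteins are the partners that complete the RING pair. PRT4165 is a small molecule described as an inhibitor of the H2A ubiquitin ligase activity of PRC1. A hairpin lowers the messenger RNA, and with it the protein in all its roles. An enzyme inhibitor is not designed to act on the messenger RNA. Comparing them asks how far gene expression differs between cells treated with the ligase inhibitor and cells with reduced RNF2 messenger RNA.

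Counts per library totalled 65877850 to 108380198 over the study, with 79544492 and 69090002 for PRT4165 and 70116392 and 65877850 for RNF2 shRNA1. Mitochondrially encoded genes held 2.67% and 2.46% of the counts with PRT4165, 3.24% and 3.23% with RNF2 shRNA1, and 2.47% and 2.51% with Scramble. The 2 RNF2 shRNA1 libraries were nearly identical: their chi-square per degree of freedom was 2.21 on the counts and 1.11 on halved counts, which allow for both ends of a fragment being counted. The 2 Scramble libraries gave 2.18 and 1.09, and the 2 PRT4165 libraries 7.4 and 3.7. The labels name no separate cultures within a group, so p-values measure only the spread between these libraries, which may be technical. The file headers call the libraries MDV3, where the labels say PC3. Cytokeratins KRT8 and KRT18 were at 125 and 137 CPM and 314 and 329 CPM in the PRT4165 libraries and at 106 and 107 CPM and 329 and 331 CPM in the RNF2 shRNA1 libraries (CPM, counts scaled to library size after TMM normalization).

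RNF2 itself (ENSG00000121481.6, GRCh37 chromosome 1, 185014496 to 185071740, plus strand) was at 29.1 and 29.1 CPM with PRT4165, 12.1 and 11.96 CPM with RNF2 shRNA1 and 30.6 and 28.3 CPM with Scramble. The RNF2 shRNA1 libraries lay well below the others, and the PRT4165 libraries lay within the range of the Scramble libraries. The difference between PRT4165 and RNF2 shRNA1 was 2.42-fold (log2 difference 1.28, SE 0.0586, adjusted p = 2.7e-15). RNF2 was not reduced with the RNF2 shRNA2 hairpin, whose libraries served only the estimate of spread (33.5 and 35.3 CPM). Those libraries were low in BMI1 instead, at 53.005 and 61.6 CPM against 251 and 255 CPM with Scramble. The reason was not tested. RING1 stood at 12.9 and 12.9 CPM with PRT4165, 12.9 and 12.8 CPM with RNF2 shRNA1 and 13.6 and 14.03 CPM with Scramble. Its log2 difference between PRT4165 and RNF2 shRNA1 was 0.0035, with a 95% interval from -0.15 to 0.16. BMI1 was measured at 257 and 245 CPM with PRT4165, 232 and 230.0 CPM with RNF2 shRNA1 and 251 and 255 CPM with Scramble, and its difference missed the threshold (log2 difference 0.12, SE 0.05004, adjusted p = 0.062). The BMI1 difference passed with library totals alone (adjusted p = 0.0256), with limma-voom (0.0156), with no filter on low counts (0.00168), in a fit of the 4 libraries alone (0.00119) and without both or either RNF2 shRNA2 library (0.000183 to 0.000206). EZH2, the catalytic subunit of PRC2, was at 57.2 and 53.7 CPM with PRT4165 against 61.3 and 59.7 CPM with RNF2 shRNA1 and was called lower (log2 difference -0.12, SE 0.0411, adjusted p = 0.013), a call that was lost without PRT4165 replicate 2 (adjusted p = 0.128), without RNF2 shRNA1 replicate 1 (0.115), with library totals alone (0.0855) and with the near-identical pairs summed (0.133), and at an adjusted p below 0.01.

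**Figure D1:**
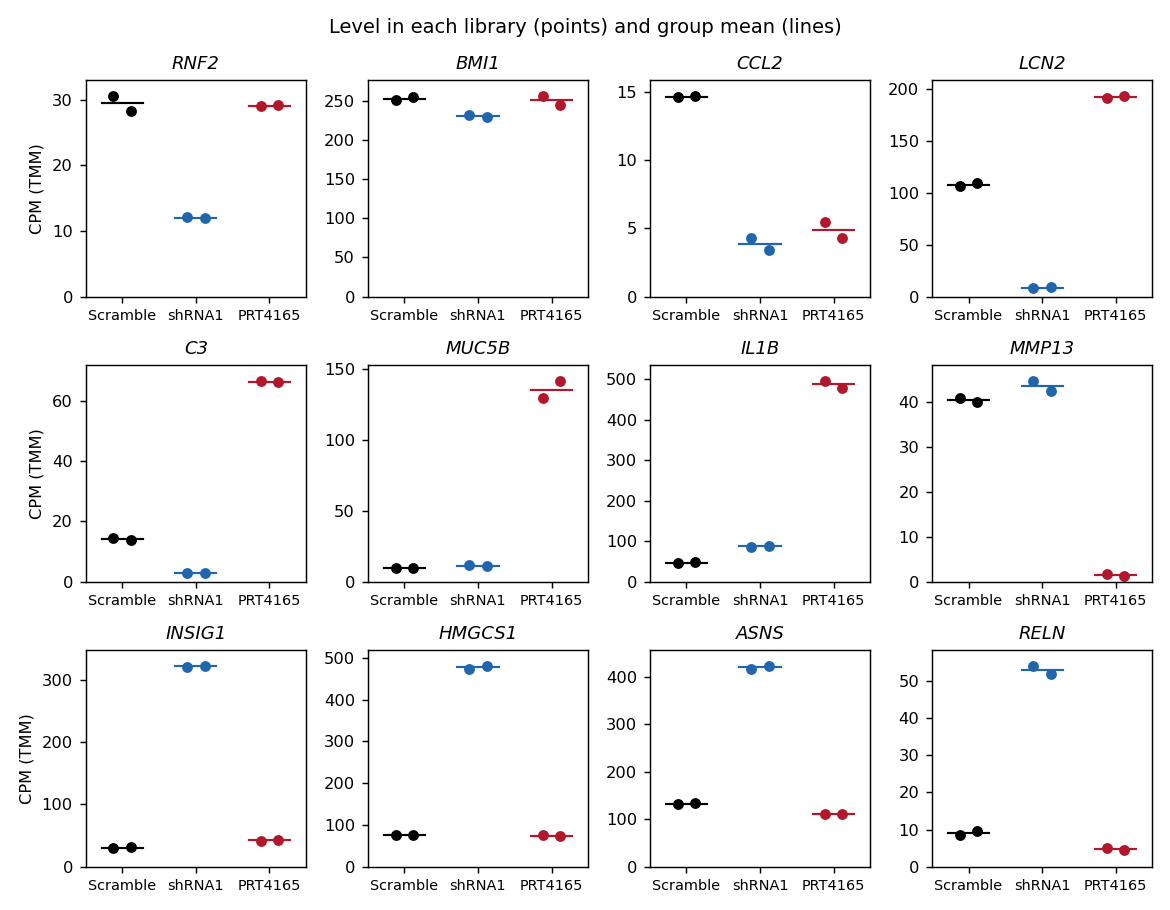
Level of 12 named genes in each library (points) with the group mean (line), in CPM after TMM normalization on a linear axis from 0, for Scramble (black), RNF2 shRNA1 (blue) and PRT4165 (red). RNF2 was low only in the 2 RNF2 shRNA1 libraries, LCN2 and C3 were lowest there, INSIG1, HMGCS1, ASNS and RELN were highest there, and MUC5B, IL1B and MMP13 stood apart in the 2 PRT4165 libraries among these 3 groups.

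Across 18478 genes tested, 5067 were higher with PRT4165 than with RNF2 shRNA1 (27.4%) and 4760 were lower (25.8%), at an adjusted p below 0.05. These shares are the background against which every list below is read. A change of at least 2-fold was reached by 1059 of the higher genes (5.73%) and 640 of the lower ones (3.46%), and 6527 called genes differed by under 1.5-fold (35.3% of genes tested). With each near-identical pair counted once, as a sum, 3873 genes were higher and 3726 lower. At the other end, 5159 genes (27.9%) had a 95% interval of the log2 difference that lay wholly within 0.32 of 0. That group includes 2327 genes that were also called, since the spread was small (common biological coefficient of variation 0.034). The median log2 difference over all genes tested was 0.013. Set against Scramble, with the same 2 control libraries in both comparisons, PRT4165 had 3681 genes higher (19.9%) and 4014 lower (21.7%), and RNF2 shRNA1 had 4834 higher (26.2%) and 5278 lower (28.6%). In these bulk libraries, fewer cells expressing a gene and less RNA per cell cannot be told apart.

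**Figure D2:**
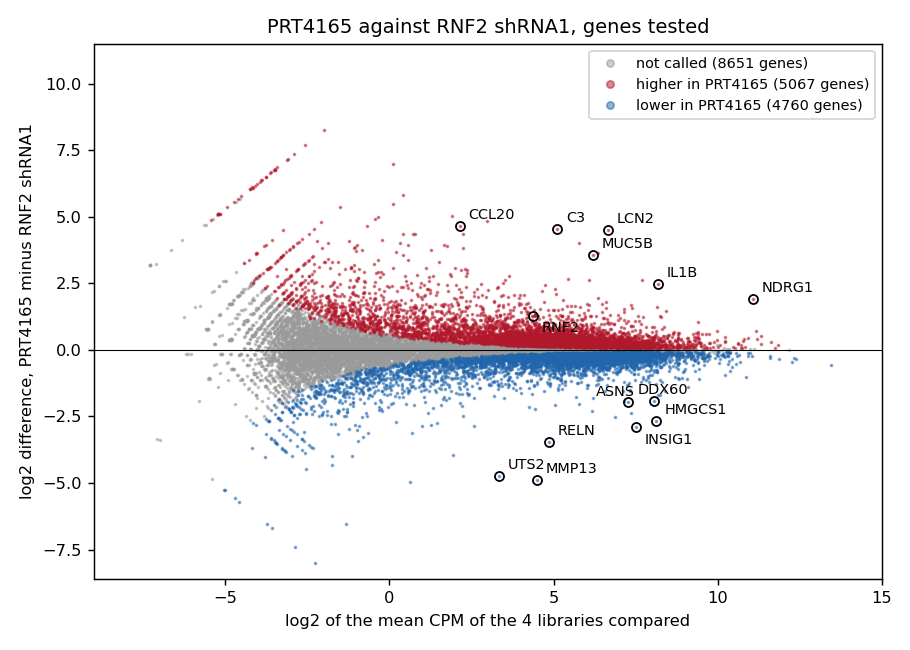
Log2 difference between PRT4165 and RNF2 shRNA1 (vertical axis) against the log2 of the mean CPM of the 4 libraries compared (horizontal axis), for genes tested that had a count in them; 5067 genes called higher are red, 4760 called lower are blue and the other 8651 are grey. LCN2, C3, CCL20, MUC5B and IL1B lie far above the line, and MMP13, UTS2, RELN, INSIG1 and HMGCS1 far below it.

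Secreted defence proteins and mucins of epithelial surfaces stood among the largest increases. Of 33 epithelial innate defence genes, 16 passed the filter on low counts. Of these, 10 were higher with PRT4165, 2 were lower and 4 were not called. Their median log2 difference was 1.24 beside 0.013 over all genes. A gene with counts in only 1 group can pass the filter, so these values do not stand for the whole list. LCN2 (ENSG00000148346.7, GRCh37 chromosome 9, 130911350 to 130915734, plus strand), a secreted protein that binds bacterial iron carriers, was at 191 and 193 CPM with PRT4165, 8.14 and 8.93 CPM with RNF2 shRNA1 and 106 and 109 CPM with Scramble. It was 22.5-fold higher with PRT4165 than with RNF2 shRNA1 (log2 difference 4.49, SE 0.0624, adjusted p = 3.9e-20). The Scramble libraries lay between, so that PRT4165 stood above Scramble and the hairpin far below it (log2 0.83 for PRT4165 and -3.66 for RNF2 shRNA1). Complement component C3 followed the same order at 66.5 and 66.1 CPM with PRT4165, 2.89 and 2.85 CPM with RNF2 shRNA1 and 14.4 and 13.9 CPM with Scramble, a 23.1-fold difference (log2 difference 4.53, SE 0.07096, adjusted p = 1.4e-24). SLPI, an inhibitor of neutrophil proteases, was at 138 and 138 CPM with PRT4165, 41.7 and 41.1 CPM with RNF2 shRNA1 and 101 and 101 CPM with Scramble and differed 3.33-fold (log2 difference 1.73, SE 0.04196, adjusted p = 1.9e-20). LCN2 was also low with RNF2 shRNA2, at 8.61 and 6.96 CPM, where RNF2 was not reduced and BMI1 was low. With GW-516 LCN2 was at 152 and 148 CPM, C3 at 30.9 and 32.7 CPM and SLPI at 222 and 222 CPM. These levels were above Scramble.

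The gel-forming mucins showed another arrangement. MUC5B was at 129 and 141 CPM with PRT4165, 11.4 and 11.2 CPM with RNF2 shRNA1 and 9.91 and 9.898 CPM with Scramble, an 11.9-fold difference (log2 difference 3.57, SE 0.0537, adjusted p = 9.3e-25). MUC5AC was at 14.7 and 15.8 CPM with PRT4165, 0.572 and 0.483 CPM with RNF2 shRNA1 and 0.474 and 0.639 CPM with Scramble, which is 28.8-fold (log2 difference 4.85, SE 0.149, adjusted p = 9.3e-19). Outside these groups, MUC5B was at 61.5 and 60.2 CPM and MUC5AC at 8.97 and 8.38 CPM with GW-516, also above Scramble. For both mucins the RNF2 shRNA1 and Scramble libraries lay close together and the PRT4165 libraries far above them. The membrane mucin MUC13 went the other way, at 13.6 and 11.7 CPM with PRT4165, 52.2 and 52.9 CPM with RNF2 shRNA1 and 21.99 and 22.1 CPM with Scramble, and was 4.14-fold lower with PRT4165. Among the other large increases, KRT81, a hair-type keratin, was at 145 and 159 CPM with PRT4165 against 11.9 and 12.2 CPM with RNF2 shRNA1. Its near-identical pseudogene KRT87P was at 5.804 and 6.07 CPM with PRT4165 against 0.381 and 0.3898 CPM with RNF2 shRNA1; reads of this pair could have been shared. C15orf48 was at 7.22 and 7.44 CPM with PRT4165 against 0.191 and 0.249 CPM with RNF2 shRNA1. The antiviral cytidine deaminase APOBEC3G was at 8.996 and 8.78 CPM with PRT4165 against 0.616 and 0.624 CPM with RNF2 shRNA1. ANGPTL4, a secreted inhibitor of lipoprotein lipase, was at 97.4 and 109 CPM with PRT4165, 6.53 and 6.33 CPM with RNF2 shRNA1 and 35.6 and 37.9 CPM with Scramble. With GW-516, KRT81 was at 268 and 266 CPM and ANGPTL4 at 184 and 187 CPM. In the same libraries C15orf48 was at 7.22 and 7.24 CPM and APOBEC3G at 9.56 and 9.08 CPM. These GW-516 levels were above Scramble too. LYPD3, LINC02015, MIR3142HG and HR completed the 15 largest increases together with KDR, which is described with the stromal and endothelial markers, and CCL20.

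Chemokines were mostly higher with PRT4165, and cytokines more often higher than lower. Of 20 matched CC and CXC chemokines 11 passed the filter on low counts, with 9 higher and 1 lower (median log2 difference 0.48). The same limit of the filter applies to them. Of 32 cytokines and receptors tested 17 were higher and 6 lower (median 0.46). CCL20, which attracts dendritic cells and T cells through CCR6, was at 8.14 and 8.74 CPM with PRT4165, 0.352 and 0.312 CPM with RNF2 shRNA1 and 1.12 and 0.7602 CPM with Scramble, a 25.2-fold difference (log2 difference 4.66, SE 0.188, adjusted p = 2.2e-16). CXCL1, a neutrophil attractant, was at 41.1 and 40.3 CPM with PRT4165, 11.4 and 11.8 CPM with RNF2 shRNA1 and 36.7 and 36.8 CPM with Scramble. The PRT4165 and Scramble libraries were close for this gene, and the hairpin libraries low. CXCL8, another neutrophil attractant, was at 86.6 and 85.97 CPM with PRT4165, 57.2 and 59.1 CPM with RNF2 shRNA1 and 44.98 and 43.9 CPM with Scramble. PRT4165 was highest of these groups, and GW-516 stood above it at 153 and 156 CPM. CCL20 was at 6.44 and 6.08 CPM with GW-516, above Scramble. CCL28, a mucosal chemokine, was at 3.91 and 3.94 CPM with PRT4165 against 1.28 and 1.57 CPM with RNF2 shRNA1. Without PRT4165 replicate 2, 2 chemokines were lower.

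IL1B, the secreted alarm cytokine, was at 496 and 478 CPM with PRT4165, 84.98 and 89.1 CPM with RNF2 shRNA1 and 45.7 and 48.04 CPM with Scramble. IL1B was 5.596-fold higher with PRT4165 than with the hairpin (log2 difference 2.48, SE 0.0356, adjusted p = 3.7e-25), and both groups stood above Scramble (log2 3.38 for PRT4165 and 0.89 for RNF2 shRNA1). With GW-516 IL1B was at 236 and 229 CPM, also above Scramble. CSF1, the macrophage growth factor, was at 9.95 and 9.33 CPM with PRT4165 against 2.01 and 2.31 CPM with RNF2 shRNA1. The interleukin 4 receptor IL4R was at 21.8 and 22.4 CPM with PRT4165 against 5.44 and 5.22 CPM with RNF2 shRNA1. CSF1 and IL4R were both higher. IL18, of the interleukin 1 family, was lower with PRT4165, at 35.996 and 37.5 CPM with PRT4165, 91.6 and 91.1 CPM with RNF2 shRNA1 and 40.1 and 40.7 CPM with Scramble. CCL2, the monocyte attractant, was below Scramble in both groups: it was at 5.49 and 4.298 CPM with PRT4165, 4.31 and 3.38 CPM with RNF2 shRNA1 and 14.6 and 14.7 CPM with Scramble. Its difference between PRT4165 and RNF2 shRNA1 was small (log2 difference 0.35, SE 0.121, adjusted p = 0.017), and its call was lost without PRT4165 replicate 1 (adjusted p = 0.385), without RNF2 shRNA1 replicate 2 (0.319) and with the near-identical pairs summed (0.0611), and at an adjusted p below 0.01. Among 19 NF-kB subunits and feedback targets, 5 were higher and 11 lower (median -0.17). TNFAIP2 and TNIP1 were higher, and RELB and BIRC3 lower. TNFAIP2 was at 7.57 and 8.47 CPM with PRT4165 against 1.11 and 0.873 CPM with RNF2 shRNA1. TNIP1, which restrains NF-kB signalling, was at 179 and 181 CPM with PRT4165 against 100.2 and 101 CPM with RNF2 shRNA1. Against these 2, the lower genes had their highest levels in the hairpin libraries. The subunit RELB was at 5.83 and 5.58 CPM with PRT4165 against 14.5 and 13.9 CPM with RNF2 shRNA1. The apoptosis inhibitor BIRC3 was at 12.8 and 12.5 CPM with PRT4165 against 26.7 and 27.9 CPM with RNF2 shRNA1.

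The 250 bases upstream of the RefSeq gene starts (GRCh38.p14) were searched on both strands for the NF-kB site, whose binding factor is known to act on LCN2 and CCL20. A match stood in the promoters of 5 of 9 matched chemokine genes (55.6%) and 2 of 8 matched innate defence genes (25%), beside 11.8% of 27305 genes in the promoter table. Lists described below, most of whose tested members were lower with PRT4165, held the site too. It stood in 4 of 17 matched sterol synthesis genes (23.5%) and 3 of 16 sterol uptake genes (18.8%). In the ATF4 list it stood in 6 of 31 (19.4%), and in the tRNA synthetases in 3 of 16 (18.8%). The innate defence share was close to these. The stretches around the matches of LCN2 and CCL20 are shown because these genes were among the largest increases of their lists. The LCN2 stretch is chr9:128149218-128149347 and the CCL20 stretch chr2:227813703-227813832, both on the plus strand, written 5′ to 3′ with the match, which reads on the opposite strand, in capitals.
LCN2: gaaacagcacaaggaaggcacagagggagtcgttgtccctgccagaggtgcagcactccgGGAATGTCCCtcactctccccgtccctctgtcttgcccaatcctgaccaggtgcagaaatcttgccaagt
CCL20: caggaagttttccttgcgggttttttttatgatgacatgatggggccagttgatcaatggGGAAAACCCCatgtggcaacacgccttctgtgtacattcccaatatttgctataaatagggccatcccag
The match begins 175 bases before the start in LCN2 and 79 bases before it in CCL20, and overlaps no match of the other motifs searched. A match of letters is a description of the window and shows no binding.

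Cholesterol synthesis stood out among the lower genes. The pathway builds cholesterol from acetyl-CoA through mevalonate and squalene, and its enzymes are switched on together by SREBP2 when cell sterols are low, while INSIG1 holds SREBP inactive when they are high. Of 22 enzymes tested 17 were lower with PRT4165 than with RNF2 shRNA1, 1 was higher and 4 did not pass, with a median log2 difference of -0.94. Without PRT4165 replicate 1 or with library totals alone, 2 were higher. INSIG1 (ENSG00000186480.8, GRCh37 chromosome 7, 155089486 to 155101945, plus strand) was at 41.99 and 43.7 CPM with PRT4165, 321 and 322 CPM with RNF2 shRNA1 and 29.6 and 31.5 CPM with Scramble. It was 7.496-fold lower with PRT4165 (log2 difference -2.91, SE 0.03903, adjusted p = 1.1e-25). The RNF2 shRNA1 libraries were high, and PRT4165 stood closer to Scramble though still above it (log2 0.49 for PRT4165 and 3.39 for RNF2 shRNA1).

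Along the pathway, HMGCS1, which makes HMG-CoA, was at 76.7 and 72.6 CPM with PRT4165, 474 and 480.4 CPM with RNF2 shRNA1 and 75.2 and 76.2 CPM with Scramble, a 6.39-fold difference (log2 difference -2.68, SE 0.0332, adjusted p = 2.5e-26). IDI1, the isoprenoid isomerase, was at 24.8 and 22.9 CPM with PRT4165, 119 and 118 CPM with RNF2 shRNA1 and 25.2 and 26.3 CPM with Scramble. FDFT1, squalene synthase, was at 174 and 165 CPM with PRT4165 against 499 and 502 CPM with RNF2 shRNA1. SQLE, squalene epoxidase, was at 137 and 135 CPM with PRT4165 against 437 and 437 CPM with RNF2 shRNA1. MSMO1, an oxidase of the later steps that remove methyl groups, was at 54.4 and 52.8 CPM with PRT4165, 274 and 273 CPM with RNF2 shRNA1 and 39.9 and 41.4 CPM with Scramble. In HMGCS1 and IDI1 the PRT4165 and Scramble libraries were close, and only the hairpin libraries were high. Over the 22 enzymes the median log2 difference from Scramble was 0.0083 for PRT4165 and 1.16 for RNF2 shRNA1, 2 comparisons that share their controls.

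**Figure D3:**
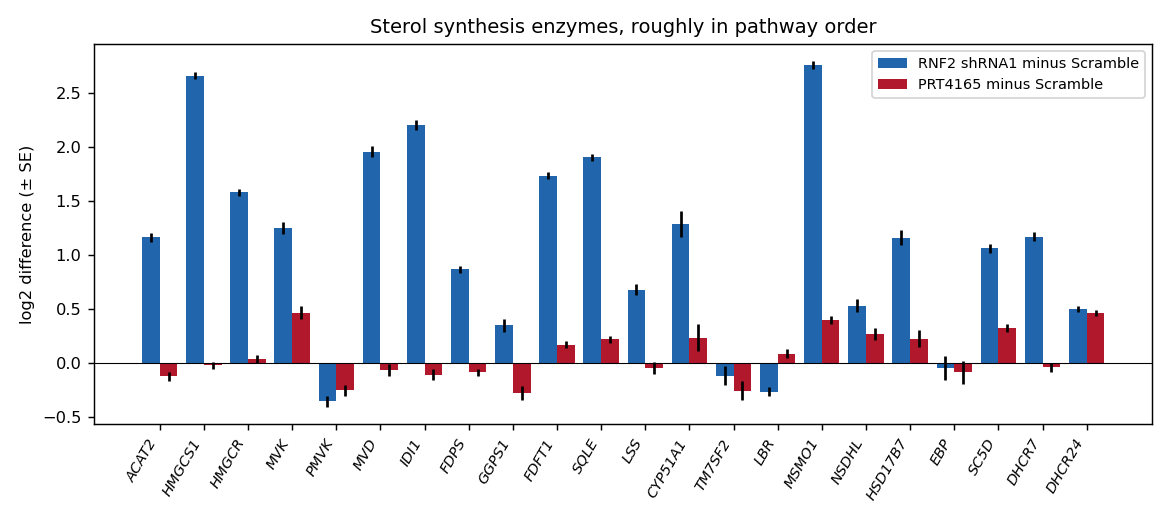
Log2 difference from Scramble (bars, with SE) of the 22 sterol synthesis enzymes, roughly in pathway order, for RNF2 shRNA1 (blue) and PRT4165 (red), with the Scramble libraries shared. The blue bars reach 2.66 for HMGCS1 and 2.75 for MSMO1, where the red bars stand at -0.02 and 0.40.

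Genes of sterol uptake and feedback also differed: 11 of 18 were lower and 5 higher (median -0.57). Lysosomal export and the regulator itself were among the lower members. NPC1, which carries cholesterol out of lysosomes, was at 142 and 137 CPM with PRT4165 against 307 and 304 CPM with RNF2 shRNA1. SREBF2, which encodes SREBP2, was at 133 and 139 CPM with PRT4165 against 289 and 292 CPM with RNF2 shRNA1. Of 23 genes of fatty acid synthesis and desaturation 13 were lower and 5 higher (median -0.25). The desaturase SCD was at 342 and 330.4 CPM with PRT4165, 725 and 720.3 CPM with RNF2 shRNA1 and 334 and 337 CPM with Scramble. ACSS2, which activates acetate, was at 95.1 and 90.7 CPM with PRT4165 against 221 and 221 CPM with RNF2 shRNA1. Members outside stearate desaturation and acetate use differed in both directions. FADS2, a desaturase of long fatty acids, was at 190.4 and 194 CPM with PRT4165 against 279 and 285 CPM with RNF2 shRNA1. The acyl-CoA synthetase ACSL5 was higher, at 6.07 and 6.49 CPM with PRT4165 against 0.9095 and 0.826 CPM with RNF2 shRNA1. Without RNF2 shRNA1 replicate 2 or with the near-identical pairs summed, 3 fatty acid genes were higher. The sterol regulatory element written TCACNCCAC, searched on both strands, stood in the 250 upstream bases of 0 of 17 matched sterol synthesis genes and 1 of 16 matched uptake genes (6.25%), beside 1.09% of all genes in the table. No match says only that these letters are not in this window.

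Genes of the ATF4 response, which raises amino acid synthesis, import and charging under nutrient or protein-folding stress, were lower with PRT4165 in 30 of 40 cases and higher in 5 (median log2 difference -0.67). Asparagine synthetase ASNS was at 111 and 112 CPM with PRT4165, 418 and 423 CPM with RNF2 shRNA1 and 133 and 134 CPM with Scramble, a 3.77-fold difference (log2 difference -1.92, SE 0.0293, adjusted p = 1.1e-24). CHAC1, which degrades glutathione, was at 6.06 and 7.88 CPM with PRT4165, 31.2 and 30.8 CPM with RNF2 shRNA1 and 6.75 and 6.26 CPM with Scramble, a 4.47-fold difference (log2 difference -2.16, SE 0.0863, adjusted p = 1.1e-15). Both genes were high in the hairpin libraries. PRT4165 was below Scramble for ASNS (log2 -0.26), and for CHAC1 its log2 difference from Scramble of 0.09 did not pass (adjusted p = 0.51). SLC7A5, an importer of large amino acids, was at 305 and 316 CPM with PRT4165 against 644 and 648 CPM with RNF2 shRNA1. The stress sensor SESN2 was at 17.6 and 18.8 CPM with PRT4165 against 53.3 and 51.02 CPM with RNF2 shRNA1. The tRNA synthetases showed the same direction in 16 of 20 members, with 3 higher (median -0.32). All 3 synthetases named here were lower. AARS1 was at 262 and 268 CPM with PRT4165 against 453 and 464 CPM with RNF2 shRNA1. YARS1 was at 217 and 212 CPM with PRT4165 against 353 and 361 CPM with RNF2 shRNA1. CARS1 was at 77.1 and 74.9 CPM with PRT4165 against 129.7 and 129 CPM with RNF2 shRNA1. The lower members extended to folate metabolism. MTHFD2, a mitochondrial folate enzyme, was at 284 and 266 CPM with PRT4165 against 555 and 555 CPM with RNF2 shRNA1. Among the members of the ATF4 list that were higher, VLDLR, a receptor of lipoproteins and reelin, had the largest difference (log2 2.43). The higher count of the ATF4 list was 3 without RNF2 shRNA1 replicate 2 and 2 with the near-identical pairs summed.

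The ATF4 site written TGATGNAA stood in the 250 upstream bases of 7 of 31 matched genes of the ATF4 list (22.6%) and 3 of 16 matched tRNA synthetase genes (18.8%), beside 3.89% of all genes in the table. The stretches of ASNS and CHAC1, a pair of named genes of the list with a match, are chr7:97872409-97872536 on the minus strand and chr15:40953221-40953329 on the plus strand (GRCh38.p14), 5′ to 3′, with the match in capitals. It reads on the strand of the gene in ASNS and on the opposite strand in CHAC1.
ASNS: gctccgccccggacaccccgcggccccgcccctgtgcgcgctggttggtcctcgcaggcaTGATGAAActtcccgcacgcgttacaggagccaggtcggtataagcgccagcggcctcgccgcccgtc
CHAC1: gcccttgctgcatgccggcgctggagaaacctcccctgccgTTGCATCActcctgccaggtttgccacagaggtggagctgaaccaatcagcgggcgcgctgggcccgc
The match begins 68 bases before the gene's start in ASNS and 209 bases before it in CHAC1, and overlaps no match of the other motifs.

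Chaperones of the endoplasmic reticulum and targets of XBP1 and ATF6 were lower in 18 of 25 cases and higher in 2 (median -0.22). The chaperone HSPA5 was at 975 and 959 CPM with PRT4165, 1657 and 1679 CPM with RNF2 shRNA1 and 1061 and 1067 CPM with Scramble. HSPA5 and the next 3 genes were highest in the hairpin libraries. HERPUD1, of the degradation machinery, was at 69.998 and 70.7 CPM with PRT4165 against 152 and 152 CPM with RNF2 shRNA1. HSP90B1 was at 1265 and 1197 CPM with PRT4165 against 1771 and 1767 CPM with RNF2 shRNA1. XBP1 was at 72.9 and 69.5 CPM with PRT4165 against 110.3 and 113 CPM with RNF2 shRNA1. The higher count was 1 with the near-identical pairs summed and without RNF2 shRNA1 replicate 2 or PRT4165 replicate 2. The hairpin libraries also had the larger mitochondrial share of counts, given above. The part of these library measures in the gene differences was not tested.

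Interferon-stimulated genes, which act against viruses, were lower with PRT4165 in 26 of 38 cases and higher in 3 (median -0.39). DDX60, an RNA helicase, was at 66.2 and 61.6 CPM with PRT4165, 245 and 245 CPM with RNF2 shRNA1 and 85.8 and 85.98 CPM with Scramble, a 3.84-fold difference (log2 difference -1.94, SE 0.0374, adjusted p = 1e-22). OASL was at 85.4 and 88.6 CPM with PRT4165, 216 and 219 CPM with RNF2 shRNA1 and 91.5 and 92.1 CPM with Scramble. HERC5, a ligase for ISG15, was at 39.04 and 37.8 CPM with PRT4165 against 94.1 and 95.6 CPM with RNF2 shRNA1. IFIT3 was at 32.6 and 31.8 CPM with PRT4165, 75.7 and 76.01 CPM with RNF2 shRNA1 and 63.4 and 63.7 CPM with Scramble. Among these groups all 4 genes were highest with RNF2 shRNA1, though IFIT3 was at 92.8 and 90.6 CPM with RNF2 shRNA2. For DDX60, IFIT3 and HERC5 the PRT4165 libraries also lay below Scramble (log2 -0.43, -0.98 and -0.62). Of 21 MHC class I and immunoproteasome genes 12 were lower and 1 was higher (median -0.25). The higher count was 0 without either RNF2 shRNA1 library, without PRT4165 replicate 2, with DESeq2, with the near-identical pairs summed and at an adjusted p below 0.01. It was 2 with library totals alone and without either library labelled RNF2 shRNA2. B2M, the light chain of class I molecules, was at 549 and 544 CPM with PRT4165 against 688 and 686 CPM with RNF2 shRNA1. The proteasome activator PSME1 was at 126 and 129 CPM with PRT4165 against 178 and 177 CPM with RNF2 shRNA1.

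**Figure D4:**
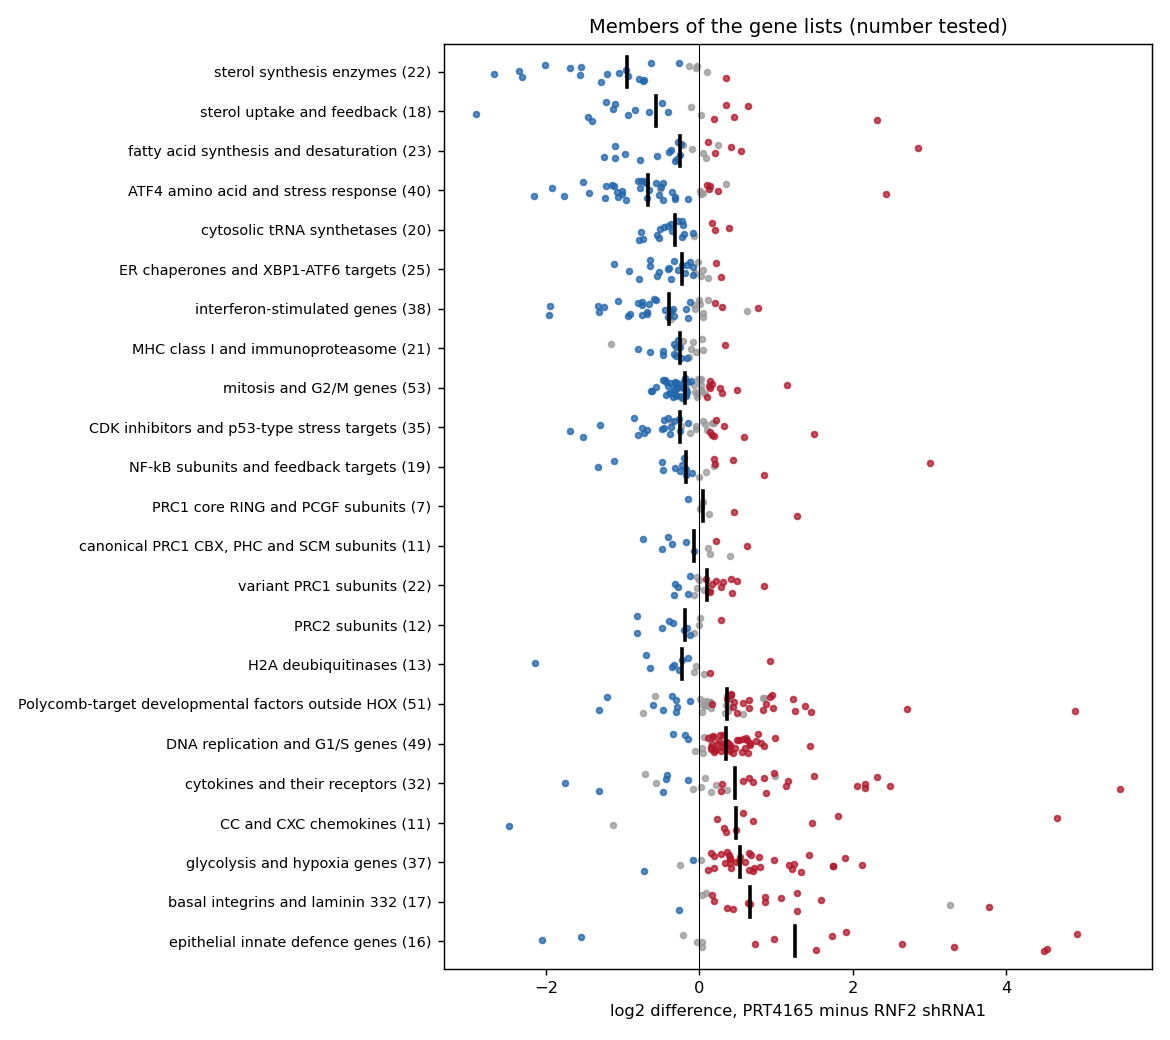
Log2 difference between PRT4165 and RNF2 shRNA1 (horizontal axis) of the members tested of 23 gene lists, 1 list per row, with members called higher in red, called lower in blue and not called in grey, and the list's median as a black bar. The medians run from -0.94 for the sterol synthesis enzymes to 1.24 for the epithelial innate defence genes, with 0.013 over all genes tested.

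Genes of glycolysis and of the hypoxia response, which carry glucose use and adaptation to low oxygen, were higher with PRT4165 in 33 of 37 cases and lower in 2 (median 0.53). NDRG1, a stress gene of hypoxic cells, was at 3326 and 3392 CPM with PRT4165, 897 and 899.7 CPM with RNF2 shRNA1 and 1227 and 1224 CPM with Scramble, a 3.74-fold difference (log2 difference 1.90, SE 0.0217, adjusted p = 7e-27). The glucose transporter SLC2A1 was at 147 and 154 CPM with PRT4165, 59.1 and 61.03 CPM with RNF2 shRNA1 and 119 and 121 CPM with Scramble. The glycolytic regulator PFKFB4 was at 55.5 and 54.2 CPM with PRT4165, 12.1 and 13.2 CPM with RNF2 shRNA1 and 33.6 and 32.9 CPM with Scramble. A prolyl hydroxylase followed them. P4HA2, which modifies collagen, was at 129.9 and 131 CPM with PRT4165 against 48.6 and 48.6 CPM with RNF2 shRNA1. Among the PRT4165, RNF2 shRNA1 and Scramble libraries, all 4 were lowest with the hairpin and highest with PRT4165. All 4 were higher still with GW-516, NDRG1 at 4615 and 4600.5 CPM and SLC2A1 at 212 and 209 CPM. The lower count was 1 without PRT4165 replicate 1, RNF2 shRNA1 replicate 2, Scramble replicate 1 or either GW-516 library. It was also 1 with library totals alone, no filter, the near-identical pairs summed and an adjusted p below 0.01. The list's median log2 difference from Scramble was 0.079 for PRT4165 and -0.47 for RNF2 shRNA1.

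The calls of the cell cycle lists went mostly in opposite directions, with small differences in the mitosis list. Genes of DNA replication and the G1/S transition were higher with PRT4165 in 41 of 49 cases and lower in 3 (median 0.34). Of the 49, 16 had a 95% interval of the log2 difference wholly within 0.32 of 0, beside 27.9% of all genes tested. MYBL2, a transcription factor of cycling cells, was at 208 and 206 CPM with PRT4165, 74.3 and 78.3 CPM with RNF2 shRNA1 and 181 and 183 CPM with Scramble, a 2.72-fold difference (log2 difference 1.44, SE 0.0342, adjusted p = 6.1e-21). Among the helicase subunits, MCM3 was at 253 and 249 CPM with PRT4165 against 173 and 176 CPM with RNF2 shRNA1. MCM4 was at 225 and 217 CPM with PRT4165 against 151 and 149.7 CPM with RNF2 shRNA1. RRM2, which makes deoxynucleotides, was at 343 and 337 CPM with PRT4165 against 240.4 and 243 CPM with RNF2 shRNA1. Compared with Scramble the list's median was -0.28 for PRT4165 and -0.58 for RNF2 shRNA1, so that both groups were below Scramble on balance. Genes of mitosis and G2/M were lower in 33 of 53 cases and higher in 9 (median -0.19). Of the 53, 28 had an interval wholly within 0.32 of 0, so many of these calls were of small differences. The higher count dropped to 3 with the near-identical pairs summed and to 5 without RNF2 shRNA1 replicate 2. The kinase AURKA was at 169.8 and 169 CPM with PRT4165 against 258 and 262 CPM with RNF2 shRNA1. The motor KIF2C was at 115 and 109.6 CPM with PRT4165 against 156 and 157 CPM with RNF2 shRNA1. ESPL1, separase, was higher, at 64.9 and 63.6 CPM with PRT4165 against 27.9 and 30.2 CPM with RNF2 shRNA1.

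CDK inhibitors and p53-type stress targets were lower in 18 of 35 cases and higher in 7 (median -0.26). The higher count was 4 without either RNF2 shRNA1 library, with DESeq2 and at an adjusted p below 0.01, and 3 with the near-identical pairs summed. PC3 cells are known to lack functional p53. PMAIP1, the pro-apoptotic protein NOXA, was at 145 and 139.7 CPM with PRT4165, 461 and 454 CPM with RNF2 shRNA1 and 149.7 and 149 CPM with Scramble, a 3.22-fold difference (log2 difference -1.69, SE 0.0372, adjusted p = 4.8e-20). The kinase PLK2 was at 13.1 and 13.1 CPM with PRT4165 against 32.4 and 31.9 CPM with RNF2 shRNA1. CCNG1 was at 216 and 203 CPM with PRT4165 against 354 and 348 CPM with RNF2 shRNA1. Of 12 replication-dependent histone genes tested 8 were lower and 0 higher (median -0.64); at an adjusted p below 0.01 the lower count was 5. H1-2 was at 15.5 and 16.1 CPM with PRT4165, 32.96 and 32.4 CPM with RNF2 shRNA1 and 10.8 and 10.04 CPM with Scramble. The hairpin libraries were highest of these groups, and GW-516 lay above them at 44.7 and 44.8 CPM. Histone genes have near-identical copies, and their values are uncertain for that reason.

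RELN (ENSG00000189056.9, GRCh37 chromosome 7, 103112231 to 103629963, minus strand), the secreted protein that guides migrating neurons by way of VLDLR and LRP8, was at 5.17 and 4.46 CPM with PRT4165, 54.01 and 51.999 CPM with RNF2 shRNA1 and 8.62 and 9.62 CPM with Scramble. It was 10.97-fold lower with PRT4165 (log2 difference -3.46, SE 0.0727, adjusted p = 5.7e-22). The hairpin libraries stood far above the rest, and PRT4165 lay below Scramble (log2 -0.92). The reelin pathway as a list was divided: of 16 tested, RELN included, 5 were lower and 5 higher (median -0.0021), with 3 lower when the near-identical pairs were summed, RNF2 shRNA1 replicate 2 was left out, library totals alone were used or an adjusted p below 0.01 was required. The receptor EPHB2 was at 98.5 and 104 CPM with PRT4165 against 48.6 and 51.3 CPM with RNF2 shRNA1, and was higher. VLDLR, a receptor for reelin and for very low density lipoprotein, was at 45.9 and 44.4 CPM with PRT4165, 8.13 and 8.58 CPM with RNF2 shRNA1 and 18.1 and 18.7 CPM with Scramble, and was 5.41-fold higher with PRT4165.

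Integrin and laminin genes were mostly higher with PRT4165, and cadherin genes divided. Of 17 genes of basal integrins and laminin 13 were higher and 1 was lower (median 0.66). ITGB4, the integrin of hemidesmosomes, was at 244 and 259 CPM with PRT4165, 83.2 and 84.98 CPM with RNF2 shRNA1 and 56.8 and 57.9 CPM with Scramble, a 2.99-fold difference (log2 difference 1.58, SE 0.0369, adjusted p = 4.5e-21). The collagen receptor ITGA2 was at 279 and 263 CPM with PRT4165, 113 and 111 CPM with RNF2 shRNA1 and 94.9 and 95.6 CPM with Scramble. ITGA5 was at 416 and 424 CPM with PRT4165, 231 and 234 CPM with RNF2 shRNA1 and 209.5 and 210.3 CPM with Scramble. ITGB5 was at 95.98 and 101 CPM with PRT4165 against 40.1 and 41.4 CPM with RNF2 shRNA1. ITGB4 and ITGA2 were above Scramble in both groups and higher with PRT4165 than with RNF2 shRNA1. ITGA2 and ITGA5 were higher still with GW-516, at 383 and 392 CPM and at 558 and 562 CPM. ITGB5 was at 104 and 105 CPM with GW-516. ITGB4 was at 221 and 219 CPM with GW-516, below PRT4165 and above Scramble. Among cadherins, catenins and desmosome genes the calls went both ways, with 9 higher and 6 lower of 19 (3 lower with the near-identical pairs summed, library totals alone, no filter, an adjusted p below 0.01, without RNF2 shRNA1 replicate 1 and without PRT4165 replicate 2). E-cadherin, CDH1, was at 40.9 and 40.5 CPM with PRT4165, 18.8 and 17.7 CPM with RNF2 shRNA1 and 15.3 and 15.6 CPM with Scramble. CDH1 stood at 39.3 and 39.1 CPM with GW-516, close to PRT4165. The desmosomal cadherin DSG2 was at 193 and 179.8 CPM with PRT4165 against 137 and 132 CPM with RNF2 shRNA1. CDH11, a mesenchymal cadherin, was low in both groups, at 0.391 and 0.548 CPM with PRT4165, 1.03 and 1.15 CPM with RNF2 shRNA1 and 5.65 and 4.41 CPM with Scramble.

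Mesenchymal and epithelial-mesenchymal transition genes were also divided: 17 of 32 were higher and 13 lower (median 0.18). The secreted growth regulators CCN1 and CCN2 were lower. CCN1 was at 59.4 and 59.9 CPM with PRT4165, 221 and 229 CPM with RNF2 shRNA1 and 50.8 and 50.6 CPM with Scramble. CCN2 was at 32.7 and 32.3 CPM with PRT4165, 113 and 114 CPM with RNF2 shRNA1 and 58.1 and 59.3 CPM with Scramble. COL5A2 was at 87.6 and 87.6 CPM with PRT4165 against 217 and 214 CPM with RNF2 shRNA1. COL6A2 was higher, at 92.998 and 104 CPM with PRT4165 against 35.6 and 33.9 CPM with RNF2 shRNA1. Of 25 metalloproteinase and urokinase genes 10 were higher and 8 lower (median 0.10). MMP13 (ENSG00000137745.7, GRCh37 chromosome 11, 102813724 to 102826463, minus strand), a collagenase, was at 1.75 and 1.15 CPM with PRT4165, 44.7 and 42.4 CPM with RNF2 shRNA1 and 40.9 and 39.97 CPM with Scramble. This 29.6-fold difference (log2 difference -4.89, SE 0.0972, adjusted p = 1.7e-21) was the largest decrease among genes that reached 5 CPM with either treatment. Of these 3 groups only PRT4165 was low. Outside them, MMP13 was at 5.57 and 6.06 CPM with GW-516 and 13.7 and 14.2 CPM with RNF2 shRNA2, which lay under both Scramble values too. Another collagenase, MMP1, was at 7.27 and 7.49 CPM with PRT4165, 19.7 and 20.2 CPM with RNF2 shRNA1 and 24.9 and 23.1 CPM with Scramble, also lowest with PRT4165. The urokinase gene PLAU was at 808 and 826 CPM with PRT4165, 1555 and 1569 CPM with RNF2 shRNA1 and 590.2 and 600.0 CPM with Scramble, highest with the hairpin. The remaining large decreases were of secreted, membrane and motor proteins. UTS2, which encodes the vasoactive peptide urotensin 2, was at 0.669 and 0.779 CPM with PRT4165, 19.5 and 19.3 CPM with RNF2 shRNA1 and 2.36 and 2.63 CPM with Scramble. The protease gene TMPRSS15 was at 0.543 and 0.389 CPM with PRT4165, 7.31 and 7.19 CPM with RNF2 shRNA1 and 10.997 and 10.9 CPM with Scramble. FGFBP1, a carrier of fibroblast growth factors, was at 34.4 and 34.9 CPM with PRT4165, 196 and 201 CPM with RNF2 shRNA1 and 41.8 and 41.9 CPM with Scramble. PKHD1, SCN3A, SLC9A9 and DYNC1I1 completed them, with 7.32-, 5.61-, 4.604- and 4.26-fold lower levels.

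Genes of the Polycomb machinery differed in both directions. Among 7 RING and PCGF subunits, RNF2 included, 2 were higher, RNF2 and PCGF6, and 1 was lower. PCGF6 was at 17.05 and 15.8 CPM with PRT4165 against 12.3 and 11.6 CPM with RNF2 shRNA1 (log2 difference 0.45, SE 0.0659, adjusted p = 2.2e-06). PCGF5 was the lower one, at 41.4 and 37.6 CPM with PRT4165 against 43.5 and 44.6 CPM with RNF2 shRNA1. It lost its call with library totals alone, with the near-identical pairs summed, at an adjusted p below 0.01, without RNF2 shRNA1 replicate 2 and without PRT4165 replicate 2. Of 11 subunits of canonical PRC1 6 were lower and 2 higher, of which PHC1 was at 7.53 and 6.303 CPM with PRT4165 against 11.9 and 11.2 CPM with RNF2 shRNA1. SCML1 was at 32.3 and 29.3 CPM with PRT4165 against 44.1 and 42.3 CPM with RNF2 shRNA1. Of 22 subunits of variant PRC1 11 were higher and 5 lower (3 lower with the near-identical pairs summed and without PRT4165 replicate 2). The corepressor BCOR was at 92.8 and 91.95 CPM with PRT4165 against 69.5 and 67.8 CPM with RNF2 shRNA1. Its relative BCORL1 was at 31.04 and 30.8 CPM with PRT4165 against 17.5 and 17.1 CPM with RNF2 shRNA1. PRC2 subunits were lower in 8 of 12 cases and higher in 1 (median -0.18), with the accessory subunit PHF1 at 13.5 and 15.2 CPM with PRT4165 against 25.7 and 24.9 CPM with RNF2 shRNA1. EZH1, the relative of EZH2, was at 20.2 and 21.3 CPM with PRT4165 against 29.8 and 28.7 CPM with RNF2 shRNA1. Genes of the H2A deubiquitinase list, not all of which act on the PRC1 mark, were lower in 8 of 13 cases and higher in 2 (median -0.22). The higher counts of these last 2 lists fell to 0 for PRC2 and 1 for the deubiquitinases without PRT4165 replicate 1. For the deubiquitinases it was also 1 without RNF2 shRNA1 replicate 2 and with the near-identical pairs summed. MYSM1 was at 53.7 and 50.3 CPM with PRT4165, 84.3 and 78.6 CPM with RNF2 shRNA1 and 49.9 and 49.4 CPM with Scramble. BRCC3 was higher, at 25.2 and 24.6 CPM with PRT4165, 13.4 and 12.99 CPM with RNF2 shRNA1 and 26.01 and 27.3 CPM with Scramble.

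Developmental genes that Polycomb is known to repress gave a mixed picture with many low values. Of 39 HOX genes 18 passed the filter on low counts, and of these 8 were higher and 2 lower with PRT4165. The higher count was 5 with the near-identical pairs summed, RNF2 shRNA1 replicate 2 left out, DESeq2 or an adjusted p below 0.01, and 3 when 1 CPM was required in 2 libraries. A gene with counts in only 1 group can pass the filter, so these counts do not stand for the whole cluster. HOXB13, the HOX gene of prostate epithelium, was at 230.4 and 240.2 CPM with PRT4165, 333 and 333 CPM with RNF2 shRNA1 and 487 and 478 CPM with Scramble. PRT4165 was lowest of these groups, and GW-516 lay below it at 200.56 and 200.45 CPM. HOXA9 was at 19.3 and 19.02 CPM with PRT4165, 26.02 and 27.2 CPM with RNF2 shRNA1 and 20.5 and 21.7 CPM with Scramble. HOXA3 was higher, at 6.14 and 6.74 CPM with PRT4165, 4.37 and 3.87 CPM with RNF2 shRNA1 and 4.201 and 5.23 CPM with Scramble. Outside the HOX clusters 51 of 86 matched developmental factors passed the filter, with 21 higher and 9 lower (median 0.36). SOX21 was at 23.9 and 24.95 CPM with PRT4165, 57.02 and 55.5 CPM with RNF2 shRNA1 and 15.4 and 16.3 CPM with Scramble, highest with the hairpin. FOXL1 was at 90.3 and 94.6 CPM with PRT4165, 51.9 and 52.6 CPM with RNF2 shRNA1 and 58.0 and 58.1 CPM with Scramble. TBX2 was at 9.59 and 12.1 CPM with PRT4165, 4.64 and 4.46 CPM with RNF2 shRNA1 and 7.97 and 7.24 CPM with Scramble. Of these groups, PRT4165 was highest for FOXL1 and TBX2. FOXL1 was at 90.0 and 93.3 CPM with GW-516.

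Markers of prostate cancer cell states and of other cell types were measured in the same fit. Of 23 stemness markers 9 were higher and 6 lower (median 0.12): ALDH1A3, which makes retinoic acid, was at 1086 and 1082 CPM with PRT4165, 1688 and 1665 CPM with RNF2 shRNA1 and 786 and 786 CPM with Scramble. The intermediate filament gene NES was at 621 and 632 CPM with PRT4165 against 459 and 467 CPM with RNF2 shRNA1. Of 11 luminal prostate genes tested 6 were higher and 2 lower. SLC45A3 was at 27.6 and 29.9 CPM with PRT4165, 11.9 and 11.8 CPM with RNF2 shRNA1 and 21.4 and 21.2 CPM with Scramble. The pioneer factor FOXA1 was at 93.7 and 87.5 CPM with PRT4165, 113 and 112 CPM with RNF2 shRNA1 and 157 and 156 CPM with Scramble. Only 6 of 15 neuroendocrine markers were tested, 1 higher (ENO2, at 18.03 and 19.3 CPM with PRT4165 against 5.72 and 5.46 CPM with RNF2 shRNA1) and 2 lower. ENO2 also encodes a glycolytic enzyme. One of the lower members, SCG2, which encodes a secretory granule protein, was at 0.568 and 0.707 CPM with PRT4165, 1.04 and 0.998 CPM with RNF2 shRNA1 and 0.391 and 0.532 CPM with Scramble (log2 difference -0.68, SE 0.278, adjusted p = 0.042). Its call was lost, which left a lower count of 1, without any 1 of the 4 PRT4165 and RNF2 shRNA1 libraries (adjusted p = 0.053 to 0.226). The same held with DESeq2 (0.142), limma-voom (0.0545), no filter (0.0569), library totals alone (0.0565), the near-identical pairs summed (0.112) and an adjusted p below 0.01. The higher count was 3 with library totals alone and 2 without PRT4165 replicate 1.

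Markers of blood cells were at or near 0: 8 of 18 passed the filter, their summed level was 1.07 to 1.41 CPM with PRT4165 and 1.23 to 1.31 CPM with RNF2 shRNA1, and PTPRC, the defining gene, was at 0 and 0.0577 CPM and 0.0587 and 0.0624 CPM. Of the 8, 1 was called higher and 0 lower. The higher one was LAPTM5, on few counts, at 0.202 and 0.173 CPM with PRT4165 against 0.0293 and 0 CPM with RNF2 shRNA1. Stromal and endothelial markers summed to 42.9 and 46.7 CPM with PRT4165, 28.2 and 28.3 CPM with RNF2 shRNA1 and 39.8 and 38.9 CPM with Scramble. Of 13 tested 6 were higher and 3 lower (1 lower without PRT4165 replicate 2 or RNF2 shRNA1 replicate 1, with 1 CPM required in 2 libraries and at an adjusted p below 0.01). KDR, the vascular endothelial growth factor receptor, was at 6.31 and 6.404 CPM with PRT4165, 0.499 and 0.343 CPM with RNF2 shRNA1 and 3.503 and 3.04 CPM with Scramble, a 14.97-fold difference (log2 difference 3.90, SE 0.184, adjusted p = 4.7e-15), and the collagen gene COL1A1 was at 25.3 and 29.7 CPM with PRT4165, 18.8 and 19.8 CPM with RNF2 shRNA1 and 26.3 and 27.1 CPM with Scramble. Of the lower members, the collagen gene COL3A1 was at 0.0757 and 0.144 CPM with PRT4165, 0.8802 and 0.904 CPM with RNF2 shRNA1 and 0.391 and 0.274 CPM with Scramble, a 8.14-fold difference (log2 difference -3.02, SE 0.413, adjusted p = 8.7e-07). VWF, which defines endothelium, was at 0 and 0.144 CPM with PRT4165 and 0.0587 and 0.0312 CPM with the hairpin. TEK, of the same list, was called higher, at 1.96 and 1.72 CPM with PRT4165 against 0.91 and 0.904 CPM with RNF2 shRNA1.

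Some genes differed strongly from Scramble in both groups, in the same direction. The 2 comparisons share the Scramble libraries, so that a deviation of those 2 libraries would appear in both. ANPEP, the surface aminopeptidase CD13, was at 144 and 149 CPM with PRT4165, 144 and 141 CPM with RNF2 shRNA1 and 40.1 and 39.01 CPM with Scramble. Its log2 difference between PRT4165 and RNF2 shRNA1 was 0.035, with a 95% interval from -0.047 to 0.12. FBN1, the microfibril protein fibrillin, was at 24.2 and 23.8 CPM with PRT4165, 23.1 and 21.5 CPM with RNF2 shRNA1 and 8.904 and 8.65 CPM with Scramble, and the interval of its difference ran from -0.017 to 0.22. SEMA7A, a membrane-bound semaphorin, was at 87.3 and 96.4 CPM with PRT4165, 83.5 and 82.3 CPM with RNF2 shRNA1 and 27.7 and 26.7 CPM with Scramble. MYO15B was at 10.8 and 11.7 CPM with PRT4165, 12.3 and 12.04 CPM with RNF2 shRNA1 and 4.42 and 4.32 CPM with Scramble. FSIP1 was at 5.43 and 5.47 CPM with PRT4165, 7.95 and 6.84 CPM with RNF2 shRNA1 and 2.43 and 1.79 CPM with Scramble. SEMA7A (log2 difference 0.15, adjusted p = 0.0049) was called higher with PRT4165 than with the hairpin, and FSIP1 (log2 difference -0.44, adjusted p = 0.0058) lower. The SEMA7A call was lost with the near-identical pairs summed (0.114) and without RNF2 shRNA1 replicate 2 (0.077) or PRT4165 replicate 2 (0.175), and the FSIP1 call without RNF2 shRNA1 replicate 1 (0.108). TMEM178A was above Scramble in both groups as well but lower with PRT4165 than with the hairpin (log2 difference -1.27, SE 0.133, adjusted p = 1.2e-08). In the other direction, UTS2B was at 6.91 and 5.97 CPM with PRT4165, 6.81 and 6.11 CPM with RNF2 shRNA1 and 16.5 and 17.1 CPM with Scramble, with a difference of -0.0016 and an interval from -0.22 to 0.21. CDH12, a neuronal cadherin, was at 3.31 and 3.07 CPM with PRT4165, 2.68 and 3.13 CPM with RNF2 shRNA1 and 8.99 and 9.12 CPM with Scramble. STUM was at 2.73 and 2.899 CPM with PRT4165, 2.74 and 2.51 CPM with RNF2 shRNA1 and 8.04 and 7.92 CPM with Scramble. ASRGL1, an asparaginase, was below Scramble in both groups (log2 -1.47 for PRT4165 and -1.98 for RNF2 shRNA1). ASRGL1 was called higher with PRT4165 than with the hairpin (log2 difference 0.51, SE 0.134, adjusted p = 0.0024), a call lost without RNF2 shRNA1 replicate 1 (0.0894).

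**Figure D5:**
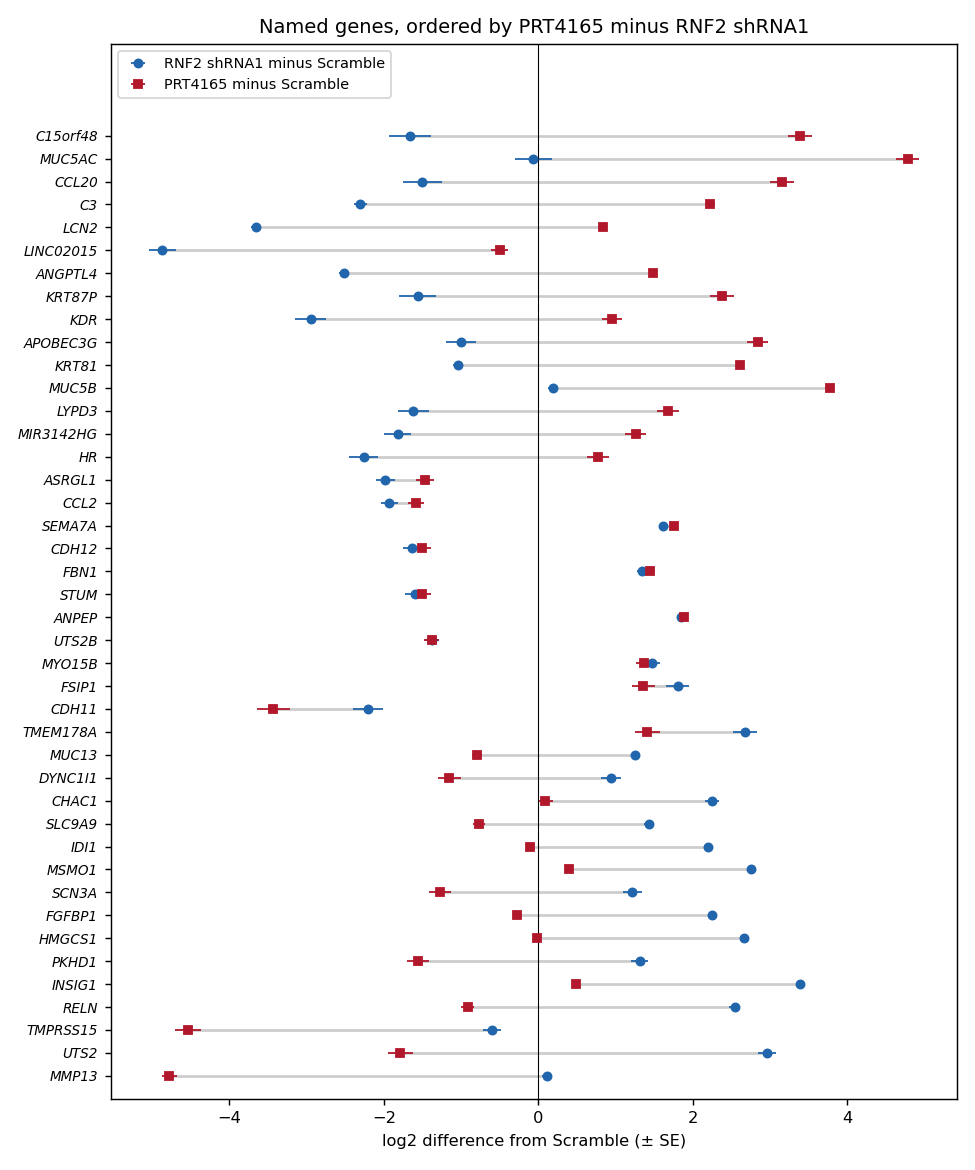
Log2 difference from Scramble (points, with SE) for RNF2 shRNA1 (blue circles) and PRT4165 (red squares) in the 15 genes with the largest increases, the 15 with the largest decreases and the 12 that differed from Scramble in both groups, ordered by the difference between the groups; both share the Scramble libraries. LCN2 and C3 lie on either side of 0, INSIG1 and HMGCS1 are displaced mainly in the hairpin libraries, MUC5B and MMP13 mainly with PRT4165, and the ANPEP points lie on top of each other.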

How the data were processed

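PC3 messenger RNA was measured in 10 libraries, 2 in each of 5 groups taken from the labels. The values are raw counts per gene as deposited by the authors, from featureCounts 1.4.3-p1 with strand option 2 on GENCODE 18, per the file headers; no option for pairs is recorded, so each end was counted, and 62.7% to 69.6% of counts from 1 to 10 were even. Alignment to hg19 (GRCh37) with STAR and DESeq2 1.8.1 appear in the submitters' processing notes with no role; for STAR no version was found in the sources used here. Reads matching several places could have been split or dropped, so genes with near-identical copies (keratin, histone, AKR1C, metallothionein, IFIT) are uncertain. Of 57445 identifiers 51812 (90.2%) matched a symbol.

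The test was edgeR 4.0.16 (R 4.3.3): TMM factors (0.972 to 1.05), filterByExpr with a minimum count of 10, 1 coefficient per group over 10 libraries, robust quasi-likelihood F tests, two-sided, adjusted by Benjamini and Hochberg over 18478 genes, called at an adjusted p below 0.05. It had 5 residual and a median of 18.6 prior degrees of freedom. Fold changes carry no true replicate error beyond that of 2 libraries a group. The members, 43 gene lists and tests were chosen with earlier results of these data known. Lists are described by counts and medians over the members that passed the filter, with no set test. A gene with counts in only 1 group can pass it. Genes named in the text are LCN2, INSIG1, RELN, RNF2, BMI1, RING1, CCL2 and EZH2; the 15 largest increases and decreases among called genes of at least 5 CPM in 1 group that did not overlap; of each list, at most 4 genes, those of lowest adjusted p; and 6 genes per direction farthest from Scramble in both groups. Some genes that this rule names are not reported here. KRT8, KRT18, PTPRC and VWF were given as cell type markers, the last 2 picked from their lists as the defining genes. Motifs were searched in RefSeq promoters (GRCh38.p14). Alternatives were other normalizations, filters, tests (DESeq2 1.42.0, limma 3.58.1), samples in the fit and thresholds, the near-identical pairs summed, thinned counts, the replicate block and each library left out. Tables and figures used Python 3.11.15, pandas 2.3.3, numpy 2.4.6 and matplotlib 3.10.9.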

Additional observations from a re-analysis of the deposited data

How the results depend on the processing

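Under the alternatives run, no named gene that was called changed direction. Named genes that were not called were not checked for a change of sign unless an alternative called them. The counts of genes higher and lower with PRT4165 than with RNF2 shRNA1 (5067 and 4760) stayed within 1.5 times, except when at least 2-fold was required (1059 and 640). Leaving out 1 library gave 4225 to 5296 higher and 4037 to 5044 lower, and 3639 and 3502 calls were kept in every such fit. DESeq2 gave 4465 and 4325, and library totals alone 5601 and 4224. Of 190 named genes called, 181 kept the call under every alternative in which they were tested; EZH2, CCL2, SEMA7A, FSIP1, ASRGL1, PCGF5, SCG2, LAPTM5 and MT-CYB lost it under at least 1 alternative. Low-count genes had intervals too wide to show small differences at this depth.

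With the replicate number as a replicate block 5007 genes were higher and 4717 lower, of which 4984 and 4694 were called without it. The deviations of same-numbered PRT4165 and RNF2 shRNA1 libraries correlated at r = -0.0537 over 10731 genes. The 2 RNF2 shRNA1 libraries differed by little more than counting noise (chi-square per degree of freedom 1.11 on halved counts). This correlation therefore cannot show whether the numbers pair the samples.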

Other observations

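Several stress and signalling lists were measured in the same comparison. Of 19 MAP kinase feedback genes 9 were lower with PRT4165 than with RNF2 shRNA1 and 4 higher (median log2 difference -0.12; 2 higher with the near-identical pairs summed). The ERK phosphatase DUSP5 was at 70.8 and 70.5 CPM with PRT4165, 210.3 and 202 CPM with RNF2 shRNA1 and 49.6 and 50.7 CPM with Scramble. ERRFI1, an inhibitor of the EGF receptor, was at 1249 and 1200.2 CPM with PRT4165, 2479 and 2513 CPM with RNF2 shRNA1 and 721 and 714 CPM with Scramble. PHLDA1 was at 509.5 and 519 CPM with PRT4165 against 855 and 847 CPM with RNF2 shRNA1. DUSP6, another ERK phosphatase, was higher, at 283 and 287 CPM with PRT4165, 200.5 and 194 CPM with RNF2 shRNA1 and 168 and 165 CPM with Scramble. Of 26 immediate early and AP-1 factors 9 were lower and 6 higher: ATF3 was at 18.2 and 19.9 CPM with PRT4165, 50.3 and 52.7 CPM with RNF2 shRNA1 and 16.3 and 15.7 CPM with Scramble. FOSL1 was at 384 and 391 CPM with PRT4165 against 641 and 630.2 CPM with RNF2 shRNA1. JUN was higher, at 135 and 154 CPM with PRT4165, 74.3 and 69.6 CPM with RNF2 shRNA1 and 77.7 and 77.4 CPM with Scramble. EGR2 was also higher, at 3.27 and 3.09 CPM with PRT4165 against 0.645 and 0.577 CPM with RNF2 shRNA1. Cytosolic heat shock chaperones were higher in 9 of 22 cases and lower in 3 (5 higher with the pairs summed), with HSPB8 at 27.8 and 28.8 CPM with PRT4165, 15.9 and 16.8 CPM with RNF2 shRNA1 and 33.3 and 33.1 CPM with Scramble.

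Genes of NRF2 and glutathione were lower in 17 of 29 cases and higher in 10 (median -0.12). Thioredoxin reductase TXNRD1 was at 1076 and 1023 CPM with PRT4165, 1499 and 1496 CPM with RNF2 shRNA1 and 1086 and 1080.4 CPM with Scramble. The exporter ABCC3 was higher, at 71.01 and 73.4 CPM with PRT4165, 42.1 and 42.7 CPM with RNF2 shRNA1 and 42.2 and 40.5 CPM with Scramble. Among 9 aldo-keto reductases, which reduce steroids and aldehydes, 5 were higher and 1 lower (3 higher when 1 CPM was required in 2 libraries). AKR1C3 was at 6.74 and 6.12 CPM with PRT4165, 1.97 and 1.68 CPM with RNF2 shRNA1 and 1.93 and 2.07 CPM with Scramble, and shares sequence with its neighbours. Aryl hydrocarbon receptor genes were lower in 6 of 11 cases and higher in 3, with CYP1B1 at 215 and 213 CPM with PRT4165, 281 and 285 CPM with RNF2 shRNA1 and 156 and 153 CPM with Scramble. Of 10 metallothionein and zinc transport genes 6 were higher and 3 lower: the zinc exporter SLC30A1 was at 80.8 and 78.2 CPM with PRT4165, 37.5 and 35.8 CPM with RNF2 shRNA1 and 48.1 and 47.2 CPM with Scramble. The importer SLC39A10 was at 157 and 151 CPM with PRT4165, 319.7 and 313 CPM with RNF2 shRNA1 and 151 and 152 CPM with Scramble. Immune checkpoint ligands were higher in 5 of 20 cases and lower in 4, with CD276 at 91.3 and 93.8 CPM with PRT4165, 60.2 and 61.6 CPM with RNF2 shRNA1 and 64.8 and 66.7 CPM with Scramble. IDO1, which degrades tryptophan, was lower, at 5.12 and 5.12 CPM with PRT4165, 9.33 and 10.1 CPM with RNF2 shRNA1 and 4.93 and 5.03 CPM with Scramble. Mitochondrially encoded genes were lower in 7 of 13 cases and higher in 2, with the oxidase subunit MT-CO1 at 4844 and 4538 CPM with PRT4165, 5985 and 5948 CPM with RNF2 shRNA1 and 5012 and 5034 CPM with Scramble. The higher count was 1 without either PRT4165 library or RNF2 shRNA1 replicate 1 and at an adjusted p below 0.01.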
